A study of Mus musculus with 6 samples.

Results

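The 9 genes described here encode the globin chains of mouse haemoglobin and a pair of other proteins made by red cell precursors. They are the adult alpha globins Hba-a1 and Hba-a2, the adult beta globins Hbb-bs and Hbb-bt, the embryonic globins Hba-x, Hbb-y and Hbb-bh1, and the erythroid genes Alas2 and Slc4a1. They were chosen by symbol, and each of the 9 was found on a row of its own among the 55359 genes of the deposited table. Poly(A) RNA of C57 mouse lung at E18.5, shortly before birth, was sequenced with 3 libraries labelled WT (wild type) and 3 labelled Prmt5 knockdown. The mothers of both groups were kept in a germ-free room, per the labels, which name no Cre or floxed allele for either group. Prmt5 is an enzyme that adds methyl groups to arginines of histones and other proteins. The sample labels say knockdown, whereas the series text speaks of a knockout in lung mesenchyme by way of Dermo1 (Twist2), a gene of mesenchymal cells. The libraries are of the whole organ, so they also hold RNA of blood cells in its vessels, and fewer red cells cannot be told apart from less RNA per red cell. Nothing in the labels ties a library to a litter or an embryo of its own, so a p-value here measures library-to-library spread, which may be technical.

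Haemoglobin is a tetramer of 2 alpha and 2 beta chains, each with a haem group that binds oxygen. In the mouse embryo the first red cells, made in the yolk sac, carry embryonic chains, and the red cells later made in the fetal liver carry adult chains. Red cells that leave the liver lose their nucleus and keep globin RNA for a short time as reticulocytes. Alas2 encodes the erythroid enzyme that starts haem synthesis. Slc4a1 encodes band 3, the chloride and bicarbonate exchanger of the red cell membrane.

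The sequences of the adult genes bear on every value below, because the paired copies are almost the same. In the GENCODE M21 transcripts (GRCm38) the coding sequences of Hba-a1 and Hba-a2 were identical at 428 of 429 bases, and those of Hbb-bs and Hbb-bt at 443 of 444. Counted from the A of the start codon, the only differences were C381T between Hba-a1 and Hba-a2 and C417T between Hbb-bs and Hbb-bt. Both lie in exon 3 of 3. The 41 coding bases around each difference are shown 5′ to 3′ with the differing base in capitals, from chr11:32284323-32284363 and chr11:32297140-32297180 on the plus strand, and from chr7:103826672-103826712 and chr7:103812663-103812703 on the minus strand.
Hba-a1: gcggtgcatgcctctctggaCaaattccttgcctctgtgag
Hba-a2: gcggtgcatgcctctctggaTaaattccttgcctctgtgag
Hbb-bs: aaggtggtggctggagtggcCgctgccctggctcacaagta
Hbb-bt: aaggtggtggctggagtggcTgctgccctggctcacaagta

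The reads were 150 bases long at each end, per the labels. Of all 150-base windows in the annotated transcripts of Hba-a1, 57.0% also occurred in those of Hba-a2, and 73.1% of the Hba-a2 windows occurred in Hba-a1. For Hbb-bs and Hbb-bt the shares were 45.6% and 50.7%. How reads that match both copies were counted is not given in the sources used here, so the split between the copies of a pair is uncertain. Their sum is the safer value, but it too would be low if such reads were left out. Hba-x, Hbb-y, Hbb-bh1 and Slc4a1 shared no 150-base window with another gene. In Alas2 6.80% of the windows also lay in transcripts of its neighbour Apex2. In coding bases Hbb-y was 74.3% identical to Hbb-bs, and Hba-x was 62.0% identical to Hba-a1.

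The bases just upstream of an adult and an embryonic gene of each locus are shown because levels are compared between these genes throughout. RefSeq (GRCm38.p6) gave a promoter for 7 of the 9 members. The last 120 bases before the start of transcription are printed 5′ to 3′, from chr11:32283552-32283671 and chr11:32276480-32276599 (plus strand) and chr7:103827929-103828048 and chr7:103853208-103853327 (minus strand). Capitals mark 4 motifs searched on both strands, which do not overlap each other in the sequences shown. The motif CACCC is bound by erythroid Krüppel-like factors. The letters CCAAT are a common promoter box. The motif GATAA is a core of sites for the erythroid factor encoded by Gata1. The last motif, ATATAA, is a form of the box at which the general transcription machinery assembles.
Hba-a1: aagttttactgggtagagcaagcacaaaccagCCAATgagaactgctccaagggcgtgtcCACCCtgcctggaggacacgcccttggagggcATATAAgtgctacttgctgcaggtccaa
Hba-x: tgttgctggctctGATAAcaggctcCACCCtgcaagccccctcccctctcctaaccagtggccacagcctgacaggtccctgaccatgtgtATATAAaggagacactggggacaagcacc
Hbb-bs: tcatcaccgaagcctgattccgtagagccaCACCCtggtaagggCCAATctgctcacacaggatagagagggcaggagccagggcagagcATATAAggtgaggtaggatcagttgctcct
Hbb-y: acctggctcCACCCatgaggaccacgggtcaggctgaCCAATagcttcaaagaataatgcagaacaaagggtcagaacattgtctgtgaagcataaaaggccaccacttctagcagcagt

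CACCC was in 7 of the 7 member promoters and in 31.7% of all 32851 promoters of the table. CCAAT was in 5 of 7 against 21.3%, ATATAA in 5 of 7 against 4.5%, and GATAA in 2 of 7, those of Hba-x and Alas2, against 10.5%. A match of letters is a description and not a site. The upstream bases of Hba-a1 and Hba-a2 were identical at 247 of 247 aligned positions, so the near identity of this pair extends beyond the coding part.

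The libraries held 14383415 to 19262837 counts assigned to genes. Prmt5, the targeted gene, stood at 11.68, 11.77 and 12.24 FPKM in wild type and at 10.06, 11.85 and 12 in the knockdown-labelled libraries. FPKM is a count scaled by exonic length and library total, so it can be compared between genes. The Prmt5 difference did not pass edgeR's quasi-likelihood test (log2 fold change -0.08, Benjamini-Hochberg adjusted p = 0.682), so the second group is called knockdown-labelled and each direction below rests on the labels. The counts are of whole lung and whole genes, so a loss in the mesenchyme alone, or of part of the gene, was not tested. Markers of lung epithelium, which check the labelled tissue, summed to at least 12869.7 CPM (counts scaled to library size) in every library. A list of 8 heart muscle markers summed to 316 to 2658 CPM in wild type and to 2918 to 8658 in the knockdown-labelled libraries. A list of 6 endothelial markers summed to 2274 to 2561 and to 1538 to 1971 CPM. A list of 8 hepatocyte markers summed to 136 CPM in knockdown-labelled replicate 3 and to 6.51 to 26.4 CPM in the other 5 libraries. The part of these differences in the values below was not tested, except where a value is given.

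Adult globin RNA was high and even in all 6 libraries. The 4 adult globins together took 0.310%, 0.361% and 0.323% of all counts in wild type replicates 1, 2 and 3 and 0.317%, 0.326% and 0.353% in the knockdown-labelled replicates. The highest library was 1.17-fold above the lowest. Scaled between libraries, the sum was 3326 ± 286 CPM in wild type and 3307 ± 165 CPM in the knockdown-labelled libraries (SD, n = 3 each). The log2 difference of -0.0061 was smaller than the spread between replicates (exact two-sided permutation test, p = 1.0, where the smallest p that 3 against 3 allows is 0.1).

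Hbb-bs (ENSMUSG00000052305, chromosome 7, 103475741 to 103477303, minus strand, as the table gives it with no build named) was the most abundant member per length. It stood at 2695.63, 3005.40 and 3185.48 FPKM in wild type replicates 1, 2 and 3 and at 2422.76, 2918.56 and 2941.36 in the knockdown-labelled replicates. The groups overlapped, and knockdown-labelled replicate 1 was the lowest of the 6. Hba-a1 (ENSMUSG00000069919, chromosome 11, 32233511 to 32234465, plus strand) was second, at 1048.85, 1293.57 and 756.45 FPKM in wild type against 1238.87, 1003.27 and 1441.75 in the knockdown-labelled libraries. Its lowest value was in wild type replicate 3 and its highest in knockdown-labelled replicate 3. The ranges of these 2 genes over the 6 libraries did not overlap each other or those of the other 7 members.

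**Figure D1:**
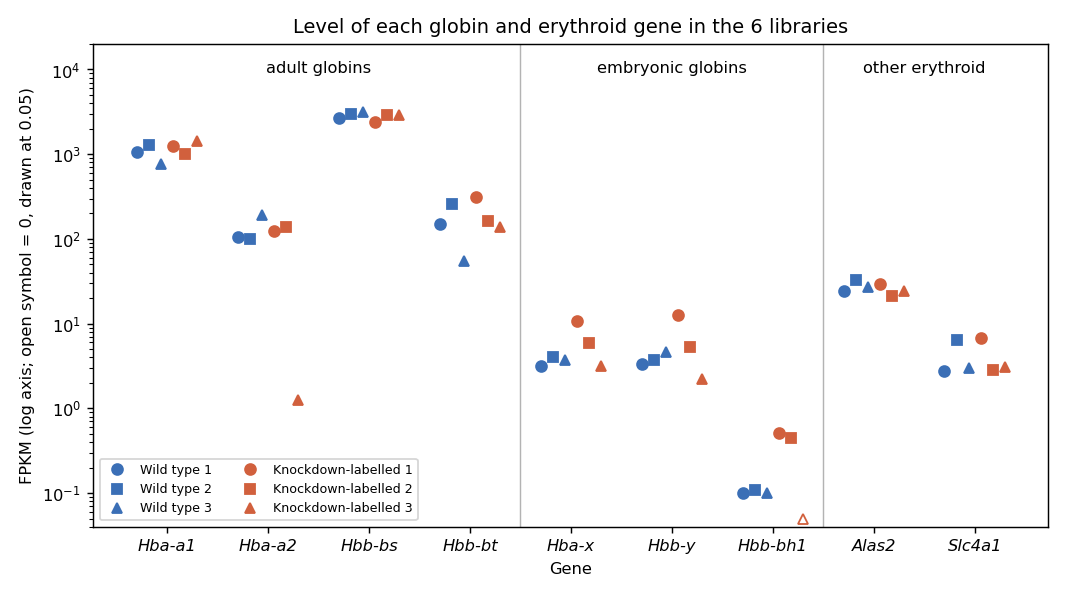
FPKM of the 9 genes (log axis) in each of the 6 libraries, with wild type in blue, knockdown-labelled in orange and the symbol showing the replicate. Hbb-bs lies between 2423 and 3185 and Hba-a1 between 756 and 1442, while Hba-x and Hbb-y stay below 13, and Hba-a2 drops to 1.25 in knockdown-labelled replicate 3.

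The second copy of each adult pair had far fewer counts than the first and varied far more between libraries. Hbb-bt (ENSMUSG00000073940, chromosome 7, 103461731 to 103463203, minus strand) stood at 149.65, 261.48 and 55.09 FPKM in wild type and at 314.53, 163.79 and 138.24 in the knockdown-labelled libraries. The highest library was 5.71-fold above the lowest, against 1.31-fold for Hbb-bs. Of adult beta globin FPKM, Hbb-bt took 5.26%, 8.00% and 1.70% in wild type against 11.5%, 5.31% and 4.49% in the knockdown-labelled libraries. The exact 95% intervals of 1.57% to 1.84% in wild type replicate 3 and 11.1% to 11.8% in knockdown-labelled replicate 1 did not meet those of any other library. Intervals cover counting error only, and the group means of 4.99% ± 3.16 and 7.10% ± 3.83 (SD, n = 3 each) differed by less than their spread.

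Hba-a2 (ENSMUSG00000069917, chromosome 11, 32246489 to 32247298, plus strand) was almost missing from 1 library. Its counts were 1162, 969 and 1993 in wild type replicates 1, 2 and 3, and 1326, 1320 and 16 in the knockdown-labelled replicates. Knockdown-labelled replicate 3 thus stood at 0.817 CPM, where the other 5 libraries lay between 68.2 and 127 CPM with a mean 108-fold higher. That library had the most counts of all and the highest Hba-a1 value, and its sum of both copies, 1443 FPKM, was also the highest, against 949 to 1395 in the other 5. In percent of adult alpha globin FPKM, Hba-a2 took 9.22%, 7.24% and 20.3% in wild type against 9.06%, 12.1% and 0.0863% in the knockdown-labelled libraries. The exact 95% interval in knockdown-labelled replicate 3 was 0.0493% to 0.140%. The other 2 libraries with the same label lay within the wild type range. The same library had the highest hepatocyte sum given above, and the part of that in the Hba-a2 value was not tested. Wild type replicate 3 had the highest Hba-a2 share and the lowest Hbb-bt share of the 6 libraries.

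**Figure D2:**
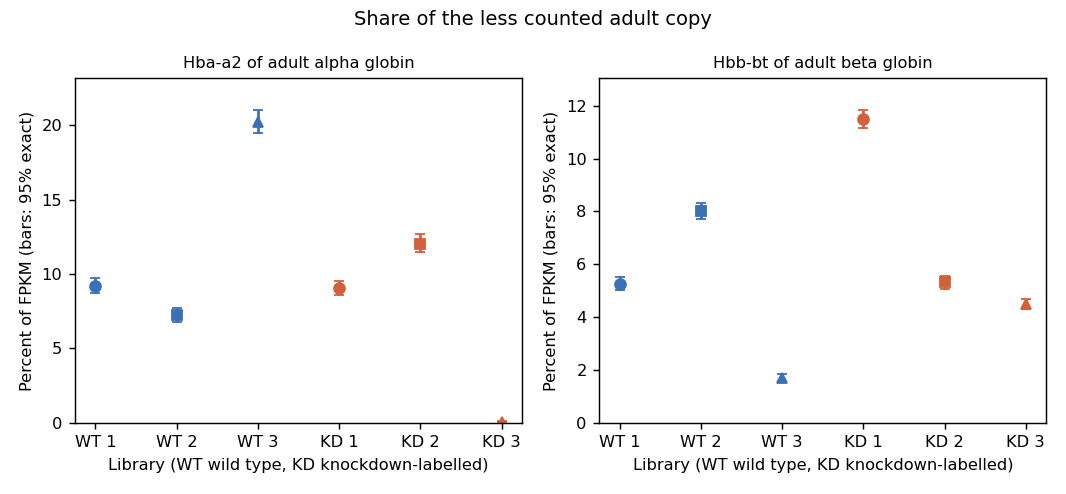
Share of Hba-a2 in adult alpha globin FPKM (left) and of Hbb-bt in adult beta globin FPKM (right) in each library, in percent, with exact 95% counting intervals. Hba-a2 lies between 7.24% and 20.3% in 5 libraries and at 0.0863% in knockdown-labelled replicate 3, and Hbb-bt ranges from 1.70% in wild type replicate 3 to 11.5% in knockdown-labelled replicate 1.

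Beta globin exceeded alpha globin RNA per length in every library. All beta globins over all alpha globins gave ratios of 2.46, 2.34 and 3.41 in wild type against 2.00, 2.69 and 2.13 in the knockdown-labelled libraries. The groups overlapped, and the alpha to beta ratio differed by 0.26 on the log2 scale (exact permutation p = 0.3, adjusted p = 0.72 over the 6 measures tested this way). The ratio rests on the exonic lengths in the table, which include bases of all annotated transcripts of a gene, and on reads that both copies of a pair could share.

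Embryonic globins were at the low end of the members, with adult globin FPKM 172-fold to 842-fold higher than embryonic globin FPKM in a library. These ratios and the embryonic shares below also rest on how reads that match both adult copies were counted. Hba-x (ENSMUSG00000055609, chromosome 11, 32226400 to 32228116), the embryonic alpha-like chain also called zeta, stood at 3.19, 4.08 and 3.70 FPKM in wild type and at 10.73, 5.85 and 3.15 in the knockdown-labelled libraries. Hbb-y (ENSMUSG00000052187, chromosome 7, 103500956 to 103502423), an embryonic beta-like chain, stood at 3.38, 3.73 and 4.67 FPKM in wild type and at 12.56, 5.27 and 2.21 in the knockdown-labelled libraries. For both genes the order of the knockdown-labelled libraries was the same, with replicate 1 above and replicate 3 below all 3 wild type values. Knockdown-labelled replicate 1 was 2.65-fold above the mean of the other 5 libraries in Hba-x and 3.21-fold in Hbb-y (CPM). Hba-x and Hbb-y could not be put in order: each was the higher one in 3 of 6 libraries.

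Hbb-bh1 (ENSMUSG00000052217, chromosome 7, 103490844 to 103492371), the beta-like chain of the earliest red cells, was near the limit of detection. A single count (1) was found per wild type library, and 5, 4 and 0 counts in the knockdown-labelled replicates. The depth-corrected ratio of the 9 knockdown-labelled to the 3 wild type counts was 2.79, with an exact 95% interval of 0.697 to 16.0 that includes no difference. That interval covers counting error in the pooled counts only, and not the spread between libraries. In knockdown-labelled replicate 3 a count of 0 allows up to 3 counts, or 0.156 CPM by library total, as a 1-sided 95% bound. The two-sided 95% limit is 0.192 CPM. The gene had too few counts to enter the test across genes.

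The embryonic share of alpha globin FPKM was 0.276%, 0.291% and 0.389% in wild type against 0.781%, 0.510% and 0.218% in the knockdown-labelled libraries. This gave means of 0.319% ± 0.0613 and 0.503% ± 0.282 (SD, n = 3 each, exact permutation p = 0.4, adjusted p = 0.72). In beta globin the embryonic share was 0.122%, 0.118% and 0.147% in wild type against 0.475%, 0.185% and 0.0719% in the knockdown-labelled libraries. Its group means were 0.129% ± 0.0160 and 0.244% ± 0.208 (SD, n = 3 each, exact permutation p = 0.6, adjusted p = 0.72). Both shares spread more among the knockdown-labelled libraries than among the wild type ones, on either side of the wild type values. The exact 95% interval of 0.398% to 0.563% for beta globin in knockdown-labelled replicate 1 lay above those of the other 5 libraries.

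The test of whether embryonic and adult globins differed in their change is the ratio of their summed FPKM within a library. It differed by 0.57 on the log2 scale between the groups (exact permutation p = 0.6, adjusted p = 0.72). Without knockdown-labelled replicate 1 that difference was 0.011, and the difference in the embryonic share of beta globin was -0.00044 percentage points against 0.115 with it. Without knockdown-labelled replicate 3 the difference in the ratio was 1.16 on the log2 scale. Its exact permutation p of 0.2 is the smallest that this test allows with a library left out. The size of the difference in embryonic share thus rested on single knockdown-labelled libraries.

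**Figure D3:**
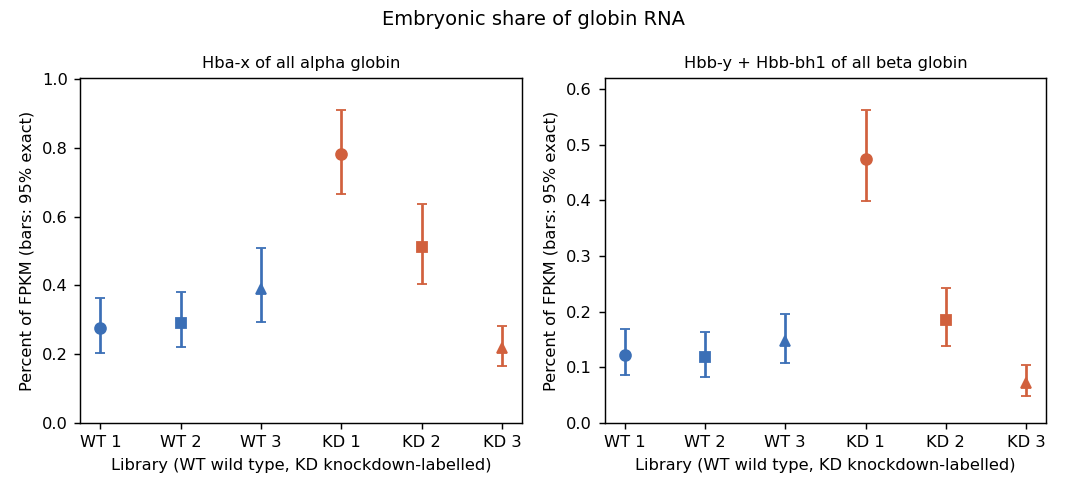
Embryonic share of alpha globin (left, Hba-x) and of beta globin (right, Hbb-y with Hbb-bh1) in percent of FPKM for each library, with exact 95% counting intervals. Wild type lies between 0.276% and 0.389% on the left and between 0.118% and 0.147% on the right, with knockdown-labelled replicates 1 and 2 above and replicate 3 below these ranges.

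Alas2 (ENSMUSG00000025270, chromosome X, 149330371 to 149353634) was the steadiest member beside Hbb-bs. It stood at 24.32, 32.43 and 26.72 FPKM in wild type and at 29.62, 21.26 and 24.41 in the knockdown-labelled libraries, and the groups overlapped. Slc4a1 (ENSMUSG00000006574, chromosome 11, 102239650 to 102257029) stood at 2.76, 6.37 and 3.01 FPKM in wild type and at 6.72, 2.81 and 3.09 in the knockdown-labelled libraries. Its values fell into 2 levels that cut across the labels, with wild type replicate 2 and knockdown-labelled replicate 1 above the other 4 libraries. Those 2 libraries were also the highest in Alas2 and in Hbb-bt. Adult globin CPM over the summed CPM of Alas2 and Slc4a1 was 43.1, 33.1 and 40.9 in wild type against 30.5, 50.3 and 47.8 in the knockdown-labelled libraries (exact permutation p = 0.6, adjusted p = 0.72), lowest in the same 2 libraries. Per length the order of the 9 members was Hbb-bs, Hba-a1, Hbb-bt, Hba-a2, Alas2, Hbb-y, Hba-x, Slc4a1 and Hbb-bh1. Among neighbours in this order, ranges overlapped between Hbb-bt and Hba-a2, between Hba-a2 and Alas2, between Hbb-y and Hba-x, and between Hba-x and Slc4a1. The range of Hbb-y also overlapped that of Slc4a1, and that of Hba-a2, through the 1 low library, also spanned those of Hbb-y, Hba-x and Slc4a1.

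Between wild type and knockdown-labelled libraries none of the globin or erythroid members passed the test. In edgeR's quasi-likelihood fit across 17728 genes 8 of the 9 members had enough counts, and 0 of the 8 had an adjusted p under 0.05, a threshold passed by 0.0338% of all genes tested (0.00564% higher and 0.0282% lower in the knockdown-labelled libraries). At an unadjusted p under 0.05 there were 0 of the 8 in edgeR and 0 of 9 in DESeq2, against 17% of all genes in edgeR (8.48% higher and 8.52% lower). In 0 of the 8 did the groups stay apart in CPM, against 23.2% of all genes (10.8% higher and 12.4% lower). The median log2 fold change of the 8 was 0.14, with 5 positive, beside a median of 0.015 and 52.9% positive over all genes tested.

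The intervals around the differences were much narrower for some members than for others. Hbb-bs had a log2 fold change of -0.11 with a 95% interval of -0.39 to 0.16 (edgeR adjusted p = 0.676), and Alas2 was at -0.16 (interval -0.52 to 0.19, edgeR adjusted p = 0.637). Hba-a1 was at 0.23 (interval -0.27 to 0.74). With the copies of a pair summed before the fit, an alternative chosen after seeing the data, alpha globin was at 0.17 (interval -0.23 to 0.56) and beta globin at -0.088 (interval -0.33 to 0.16). For the embryonic genes the intervals were wider. Hba-x had a log2 fold change of 0.83 (standard error 0.43, interval -0.18 to 1.84, edgeR adjusted p = 0.377), and 0.30 without knockdown-labelled replicate 1. Hbb-y had one of 0.75 (interval -0.62 to 2.12, edgeR adjusted p = 0.563), and -0.071 without that library. Without knockdown-labelled replicate 3 these values were 1.17 and 1.17. In that fit 2 members had an unadjusted p under 0.05, as had 2430 of all 18026 genes tested, with 0 members past the adjusted threshold.

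Hba-a2 had a log2 fold change of -0.61 (interval -3.20 to 1.98), and -0.026 without knockdown-labelled replicate 3. Hbb-bt was at 0.39 (interval -0.92 to 1.69), and at -0.043 without knockdown-labelled replicate 1 or -0.022 without wild type replicate 3. Slc4a1 was at 0.041 (interval -0.99 to 1.08), at -0.45 without knockdown-labelled replicate 1 and at 0.53 without wild type replicate 2. For these genes the spread between libraries was larger than any difference between the groups.

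**Figure D4:**
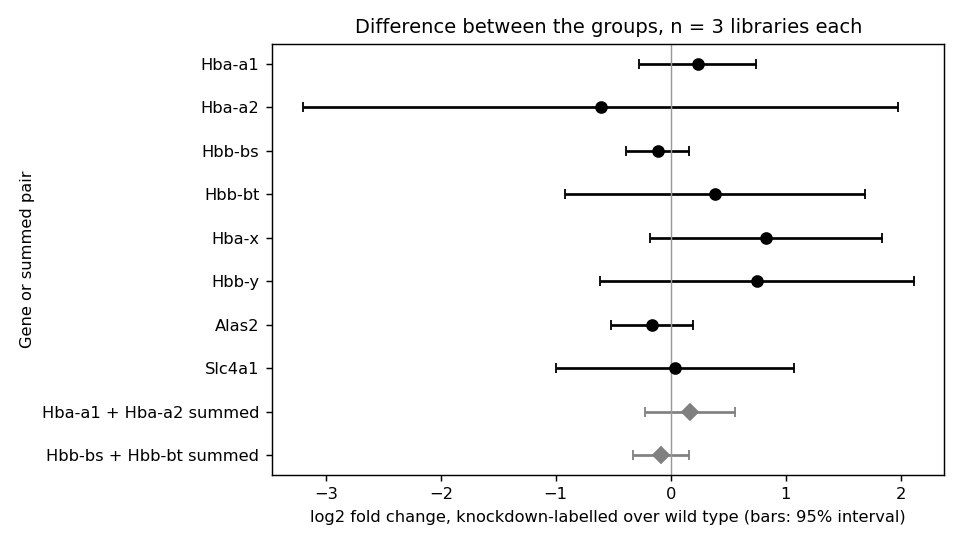
Log2 fold change of the 8 tested members and of the 2 summed adult pairs, knockdown-labelled over wild type (n = 3 libraries each), with 95% intervals from the edgeR fit. Each interval includes 0, from the narrowest, the summed beta pair and Hbb-bs, to that of Hba-a2, which reaches from -3.20 to 1.98.

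The remaining haemoglobin genes were at or near 0. Hbb-bh0, Hbb-bh2, Hbb-bh3 and Hba-ps3 had 0 counts in every library. Hbq1b, a theta globin, was counted 4, 8 and 8 times in wild type libraries, and 16, 9 and 6 times in knockdown-labelled ones. Its paralog Hbq1a had 0, 2 and 2 against 4, 4 and 3, and the pseudogene Hba-ps4 had 4, 1 and 3 against 0, 1 and 0. None of these had enough counts to be tested.

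Other genes that red cells and their precursors use were read from 6 lists that name 74 genes in all, and 66 of them entered the fit. At an adjusted p under 0.05 there were 0 of 66 in edgeR (smallest adjusted p = 0.0805). At an unadjusted p under 0.05 there were 15, or 22.7%, with 10 higher and 5 lower, beside 17% of all genes tested. The median log2 fold change of the 66 was 0.022, beside 0.015 over all genes. Which cells of the whole lung the RNA of these 66 genes came from was not tested.

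Of 13 genes of haem synthesis and its mitochondrial transport, 8 were positive and 5 negative, with a median log2 fold change of 0.098. Cpox, which encodes coproporphyrinogen oxidase, had 47.8 ± 3.13 CPM in wild type and 58.7 ± 3.26 in the knockdown-labelled libraries (SD, n = 3 each, edgeR adjusted p = 0.174). It was the 1 gene of the 13 with an unadjusted p under 0.05, beside 17% of all genes tested. The mitochondrial transporter gene Abcb10 stood at 27.4 ± 2.44 and 23.7 ± 1.02 CPM, the iron-sulfur cluster gene Glrx5 at 24.0 ± 1.12 and 27.0 ± 1.44 CPM, and Ppox, the next enzyme after Cpox, at 68.0 ± 1.27 and 77.0 ± 8.32 CPM.

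Of 15 tested genes for the red cell membrane and its skeleton, 5 had an unadjusted p under 0.05, with 4 higher and 1 lower, and 0 passed the adjusted threshold. Of all genes tested, 8.48% were higher and 8.52% lower at that unadjusted p. The lower one was Aqp1, a water channel gene also active in endothelium, with 587 ± 33.9 against 385 ± 25.3 CPM (edgeR adjusted p = 0.0805). The endothelial sum given above was lower in the same libraries, and its part in the Aqp1 value was not tested. The higher ones included Sptb, erythroid beta spectrin (26.7 ± 9.99 against 49.7 ± 3.83 CPM), and Ank1, the ankyrin that holds band 3 to spectrin (13.3 ± 8.87 against 36.8 ± 4.29 CPM). Both are also used in striated muscle. The heart muscle sum was higher in each knockdown-labelled library than in each wild type one, as were Sptb and Ank1, and its part in their values was not tested. Add2, an adducin gene, stood at 3.58 ± 0.00872 against 5.49 ± 0.837 CPM.

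Transcription factors of the erythroid programme were present at very different levels. Klf1, which drives adult beta globin, had 0.463 ± 0.198 CPM in wild type and 0.515 ± 0.143 in the knockdown-labelled libraries, too few counts to be tested, and Gata1 had 1.02 ± 0.112 and 0.638 ± 0.201 CPM. Lmo2 (48.9 ± 4.45 against 35.5 ± 3.36 CPM, edgeR adjusted p = 0.141) and Tal1 (25.6 ± 0.644 against 18.6 ± 3.40 CPM, edgeR adjusted p = 0.189) are shared with endothelial cells and had lower means, as had the endothelial markers, whose part was not tested. Bcl11a, which silences embryonic and fetal globin genes in red cell precursors, stood at 9.47 ± 0.703 against 14.3 ± 3.07 CPM (edgeR adjusted p = 0.202). This level was above those of Klf1 and Gata1, and which cells of the whole lung the Bcl11a RNA came from was not tested.

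In the list of red cell enzymes and maturation genes 16 were tested, and an unadjusted p under 0.05 was found for 1 higher and 1 lower gene. Over all genes tested the shares at that unadjusted p were 8.48% higher and 8.52% lower. Car2, a carbonic anhydrase gene, stood at 177 ± 12.05 against 127 ± 8.59 CPM (edgeR adjusted p = 0.104). Slc2a4, the insulin-responsive glucose transporter gene, stood at 12.4 ± 5.95 against 27.3 ± 2.33 CPM and is a gene of heart and skeletal muscle as well, so the heart muscle sum given above stands beside it too. Prdx2, an antioxidant enzyme gene, stood at 122 ± 6.997 against 136 ± 6.26 CPM, and Xpo7, a nuclear export gene, at 94.96 ± 1.456 against 88.1 ± 3.22 CPM. Of the 5 receptor and signalling genes Kit had 165 ± 12.8 against 109 ± 25.5 CPM (edgeR adjusted p = 0.181). The endothelial sum given above was lower in the same libraries, and its part in the Kit value was not tested. Epor, the erythropoietin receptor gene, had 3.02 ± 0.291 against 2.88 ± 0.690 CPM, and Jak2, Stat5a and Stat5b had log2 fold changes of -0.13, -0.0043 and -0.047.

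Among 9 tested genes of iron uptake and storage 3 were higher at an unadjusted p under 0.05 and 0 at the adjusted one, where 8.48% of all genes tested were higher at that unadjusted p. These were the transferrin receptor gene Tfrc (65.7 ± 5.41 against 79.5 ± 2.80 CPM, edgeR adjusted p = 0.191), the ferrireductase gene Steap3 (7.73 ± 1.03 against 13.7 ± 4.10 CPM) and the ferritin heavy chain gene Fth1 (530.4 ± 26.5 against 612 ± 21.4 CPM). Slc11a2, an iron importer gene, stood at 48.9 ± 5.58 against 44.0 ± 3.63 CPM. These genes are active in most tissues, so their values in whole lung do not stand for red cells.

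**Figure D5:**
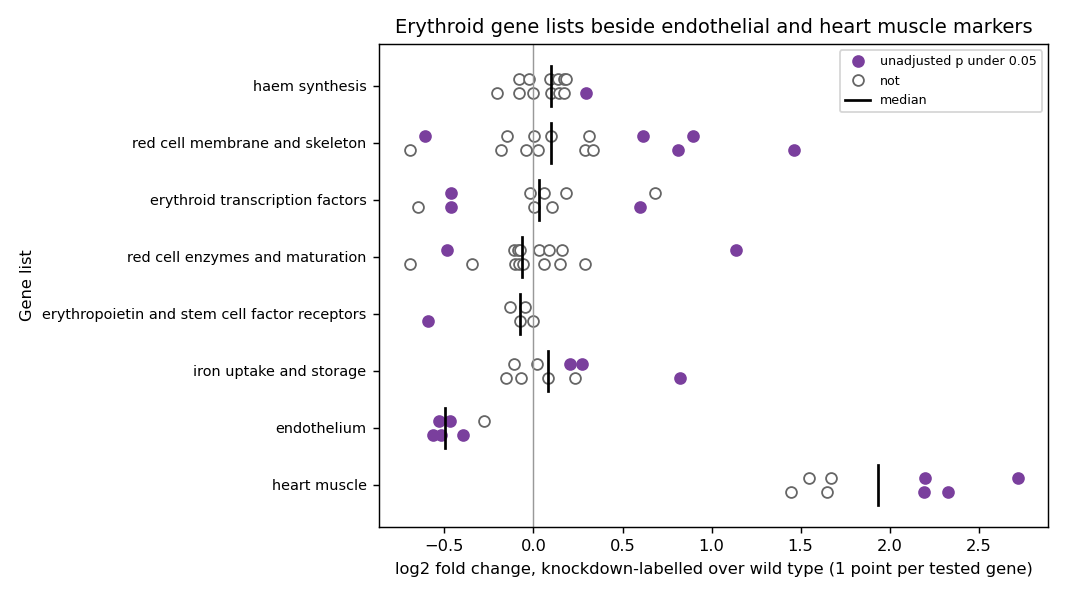
Log2 fold change (knockdown-labelled over wild type) of each tested gene in 6 erythroid and iron lists, with the endothelial and heart muscle markers for comparison. Filled points have an unadjusted p under 0.05 and black bars are list medians. The erythroid medians lie between -0.073 and 0.10, against -0.49 for endothelium and 1.93 for heart muscle.

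Megakaryocyte and platelet markers, another blood lineage, summed to 27.3 to 33.4 CPM in wild type and 25.7 to 31.8 CPM in the knockdown-labelled libraries, and leukocyte markers to 647 to 785 and 730 to 821 CPM. Most of the leukocyte sum was Lyz2 alone (592 ± 99.6 against 607 ± 26.0 CPM), so the sum says little about the other markers. Of the 8 leukocyte markers 7 were positive and 1 negative. Their median log2 fold change was 0.45, beside 0.015 over all genes tested, and 0 passed an adjusted p under 0.05 in edgeR.

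The non-member genes whose level followed the adult globin sum most closely were Tecpr2, B3galnt1, Retsat, Sp5, Rcn2, Minpp1, Rprd1b and Tmem109, with Pearson correlations of 0.95 to 0.99 over the 6 libraries. They were the highest of 12195 genes searched. The adult globin sum itself spans only 1.17-fold, and the libraries are shared between the values, so this is a description of these 6 libraries only.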

How the data were processed

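Each gene has a raw count and an FPKM for every library in the deposited table, with an exonic length per the file headers. The authors' FPKM was recomputed from counts, library totals and lengths and differed by at most 0.005. HISAT2 2.0.1, HTSeq 0.6.1 and cutadapt 1.9.1 are listed, with no role, in the submitters' processing notes. Not given in the sources used here: build, annotation, strand, and how reads with several matches were treated. Libraries were grouped by genotype label and numbered in accession order. Counts were fitted with edgeR 4.0.16 in R 4.3.3 (filterByExpr, TMM, quasi-likelihood test, group only, Benjamini-Hochberg over all 17728 genes, threshold 0.05). CPM uses the TMM factors. Sums and ratios over members were compared by exact two-sided permutation (SciPy 1.17.1), with Benjamini-Hochberg adjustment over 6 measures. Shares have exact (Clopper-Pearson) 95% intervals on the counts, carried to the per-length scale. A floor is 3 counts, or 0.156 to 0.209 CPM by library totals without the TMM factors.

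Members and lists were chosen with earlier results of these data known. Named are the 9 members, other globin genes, Prmt5, up to 4 list genes with the smallest p (all in lists under 8), and the 8 named genes with a mean of at least 5 CPM most correlated with the adult globin sum. Klf1 was added after its values were seen. Ahsp, Hbb-b1 and Hbb-b2 were not found under these symbols and were not analysed here. Alternatives were median-of-ratios scaling, no filter, totals without the members, DESeq2 1.42.0, limma 3.58.1 on log2(FPKM + 1) or + 0.1 with a mean FPKM of at least 1 or 5, each library left out, and summed copies. On counts simulated for this comparison (17728 genes) edgeR recovered 61 of 100 genes changed by a log2 fold change of 1. It recovered 84 of 100 changed by 2, and 7 of all 152 calls were false. Each count was drawn independently at its gene's own dispersion, and changed genes had a mean above 1 CPM. Shifts shared by many genes of a library were not simulated, so recovery in the real libraries may differ. Replicates differed by more than counting noise (chi-square per gene 13.2 to 44.4), so none was treated as a copy of another library. This does not show that the libraries come from different embryos.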

Additional observations from a re-analysis of the deposited data

How the results depend on the processing

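No paired analysis was possible because the labels give no replicate numbers shared between the groups. Across the 14 alternative fits 0 of 110 values of single members passed an adjusted p of 0.05 (smallest 0.271). The count of 6 genes past the threshold over all genes became 81 without a filter, 814 in DESeq2, 3 in limma on log2(FPKM + 0.1) and 2 at a mean FPKM of at least 5, and 0 to 17 with a library left out. The 0 calls came with 1663 to 3287 genes at an unadjusted p under 0.05. The fits differed in the samples, genes or method used, and the cause of the changed counts of calls was not tested.

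The adult globin sum changed sign around 0, at 0.0052 on the log2 scale with CPM from total counts, 0.0011 with summed FPKM, and -0.050 to 0.063 with a library left out. The embryonic share of beta globin was -0.00044 to 0.201 percentage points and the adult globin to Alas2 and Slc4a1 ratio -0.022 to 0.34 with a library left out. That ratio was -0.0036 when wild type replicate 2 was left out, and -0.022 when knockdown-labelled replicate 2 was. Leaving out wild type replicate 2 put the adult sum at 0.063, and leaving out knockdown-labelled replicate 1 at 0.031. Among single members the log2 fold change of Hbb-bt ranged from -0.043 (knockdown-labelled replicate 1 left out) to 0.99, with -0.022 when wild type replicate 3 was left out. That of Hbb-y ranged from -0.071 (knockdown-labelled replicate 1 left out) to 1.17. That of Slc4a1 ranged from -0.45 (knockdown-labelled replicate 1 left out) to 0.53, with -0.17 and -0.14 when wild type replicate 1 or 3 was left out. The other 101 values of single members kept their direction. Depth limits Hbb-bh1, with 0 to 5 counts a library.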
